A study of Mus musculus with 21 samples.

Results

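The mRNAs of 10 genes of the PERK pathway and the wider integrated stress response were compared in the hippocampus of adult mice after maternal separation (MS) and after standard rearing (SR). The genes were taken by name: the eIF2α kinases Eif2ak3 and Eif2ak4, the phosphatase subunits Ppp1r15a and Ppp1r15b, the transcription factors Atf4 and Ddit3, and the target genes Asns, Trib3, Chac1 and Sesn2. All 10 were found among the 55487 genes of the count table, and all 10 passed the filter on low counts, which left 18146 genes to test. The mice were wild type C57BL/6 males of 10 weeks, 9 after MS and 12 after SR, with 1 library of poly-A RNA per mouse. Nests of the MS group were parted from the dam as a whole for 4 hr per day from postnatal day (PND) 10 to 17, with limited nesting material, whereas SR nests were not separated. The comparison asks whether RNA levels of these genes in adulthood differ with the rearing condition.

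The integrated stress response is a pathway by which cells slow protein synthesis and switch on a set of rescue genes. PERK, the product of Eif2ak3, senses unfolded protein in the endoplasmic reticulum (ER), and GCN2, the product of Eif2ak4, senses uncharged tRNA when amino acids run short. Both phosphorylate the translation factor eIF2α, which lowers translation in general but favours that of ATF4, a transcription factor that switches on genes of amino acid supply, redox balance and, under lasting stress, Ddit3 (CHOP). Phosphorylation is reversed by protein phosphatase 1, which is brought to eIF2α by either of its regulatory subunits GADD34 (Ppp1r15a) or CReP (Ppp1r15b). Much of this signalling happens on proteins, so that RNA levels show its transcriptional arm only.

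ATF4 acts together with C/EBP proteins through an element spelled TGATGNAA, which reads TTNCATCA on the other strand. Promoters of RefSeq (GRCm38.p6), from 250 bases before to 50 bases after the start, were held for 9 of the 10 genes, all but Ppp1r15b. The element was found in 3 of these genes, all of them target genes, and in 3.97% of the 32851 promoters in the RefSeq table. The 3 matches are shown with 11 bases on either side, in the direction of the gene, with the matching letters in capitals.
Asns (chr6:7693214-7693243, minus strand): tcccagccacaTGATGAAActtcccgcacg
Trib3 (chr2:152344028-152344057, minus strand): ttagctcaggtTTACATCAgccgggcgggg
Chac1 (chr2:119351038-119351067, plus strand): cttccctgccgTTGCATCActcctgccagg
Positions are counted from the RefSeq start, which differs from the ends of the GENCODE gene spans given below. The match in Asns lay on the strand of the gene and began 23 bases before the RefSeq start, though inside the GENCODE span. Those in Trib3 and Chac1 lay on the other strand, at position 15 after the RefSeq start and 193 bases before it. Both of these lay outside the GENCODE spans, upstream of them. The ER stress element, in which CCAAT and CCACG are separated by 9 bases, had no match in these 9 genes and one in 0.119% of all promoters. A match is a string of letters and not a measured binding site.

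Total counts lay between 17276810 and 30449055 in MS libraries and between 18368519 and 26450808 in SR libraries. MS mouse 5 lay farthest out on the first principal component and was left out of the fit, which leaves 8 MS and 12 SR mice. Its summed CPM (counts of a gene scaled to a common normalised library total, as edgeR's cpm gives them) of 8 striatal markers was 1990, against 82.1 to 698 in the other mice of both groups, and that of 8 markers of hippocampal neurons was 179, against 492 to 1047. No marker of hippocampal neurons was at 0 in any library of the fit. Among the mice in the fit, 7 of 7 choroid plexus markers had a log2 fold change above 0. Their summed CPM was 52.9 to 4187 in MS (median 3305) and 29.0 to 4512 in SR (median 834). Of striatal markers, 8 of 8 had one above 0 (82.1 to 698, median 123, and 88.9 to 428, median 109). By medians over mice, however, Drd2 and Rgs9 were lower in MS. Of markers of hippocampal neurons, 7 of 8 had one below 0, with a median of -0.09 (492 to 944, median 770, and 512 to 1047, median 812). Medians over mice had Dsp higher and Spink8 lower in MS, against the signs of their fold changes. No single gene of these 3 lists passed an adjusted p of 0.05 in edgeR, and the lists were not tested as sets. The part of these tissues in the values below was not tested, and in bulk tissue fewer cells of a type and less RNA per cell cannot be told apart. Mice fell into 7 sets of 3 consecutive animal numbers, 3 of MS (A to C) and 4 of SR (D to G), each of a single condition. Whole nests were assigned to a condition and the labels name no nest, so that p-values over mice may be too small where littermates are alike.

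None of the 10 genes differed between MS and SR in edgeR's quasi-likelihood test (adjusted p from 0.275 to 0.992), where 0.011% of all genes tested passed, 2 in number. DESeq2 called none of the 9 genes to which it gave an adjusted p, all but Trib3, against 0.925% of 14276 genes. At an unadjusted p under 0.05 in edgeR, 1 of the 10 was higher in MS, Ppp1r15b, against 6.62% of all genes, and none was lower, against 4.92%. Of the log2 fold changes, 7 were above 0 and 3 below, with a median of 0.02 (0.00 over all genes) and a median size of 0.04 (0.07 over all genes). The 95% intervals of 9 genes excluded a 1.2-fold change in either direction. The exception was Trib3, the gene with the fewest counts. In counts simulated for this comparison, 54.8% of genes changed by 1.3-fold were called by edgeR. The changed genes were drawn from all those tested, and mice were drawn independently, without likeness within nests. The share is thus not that of these 10 genes or of this design. The values of MS and SR mice formed separate ranges for 0 of the 10 genes, and for 0.011% of all genes tested, 2 in number.

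**Figure D1:**
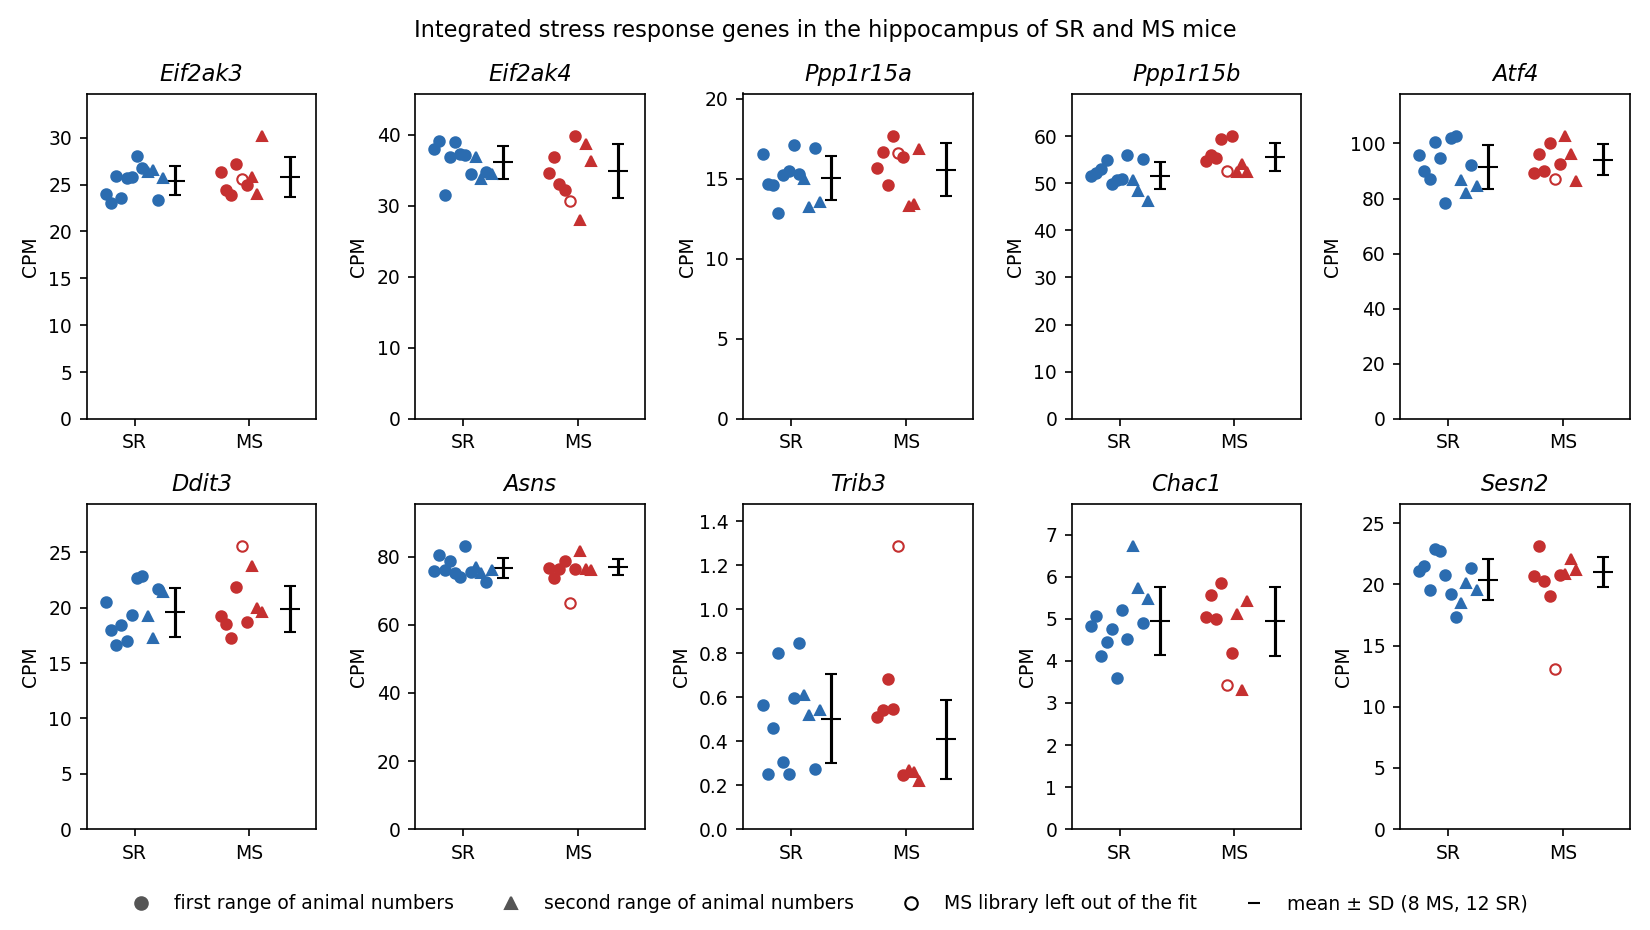
CPM of the 10 genes in each SR and MS mouse (y axis, starting at 0), with circles for the first and triangles for the second range of animal numbers, an open circle for the MS library left out, and bars for the mean ± SD of 8 MS and 12 SR mice. The groups overlap in every panel. The left-out library is the highest of all for Trib3 (1.29 CPM) and Ddit3 (25.5 CPM). It is the lowest of all for Sesn2 (13.1 CPM) and Asns (66.5 CPM).

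Both kinases were at like levels in the 2 groups. Eif2ak3 (ENSMUSG00000031668, GRCm38 chromosome 6, 70844515 to 70905245, plus strand) ranged from 23.9 to 30.2 CPM in MS mice with a median of 25.4, and from 23.1 to 28.0 CPM in SR mice with a median of 25.8. Means were 25.8 ± 2.11 (SD, n = 8) and 25.4 ± 1.54 (n = 12). The log2 fold change was 0.02 (SE 0.0476, 95% interval -0.08 to 0.12, adjusted p = 0.900 in edgeR). A single MS mouse lay above the SR range, and the 7 others lay inside it. Eif2ak4 (ENSMUSG00000005102, chromosome 2, 118388618 to 118475234, plus strand) ranged from 28.0 to 39.8 CPM in MS (median 35.4) and from 31.6 to 39.2 CPM in SR (median 36.9). The log2 fold change was -0.05 (SE 0.0549, 95% interval -0.16 to 0.06, adjusted p = 0.779 in edgeR), and 6 of 8 MS mice lay inside the SR range, with the remaining pair to either side of it. Of the exon bases of Eif2ak3, 8.05% overlap an unconfirmed transcript on the opposite strand with 90 counts in all libraries together, and the strand setting of the authors' counting is not given in the sources used here.

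Of the phosphatase subunits, Ppp1r15b had the smallest p of the 10 genes, and neither subunit passed adjustment. Ppp1r15b (ENSMUSG00000046062, chromosome 1, 133131143 to 133139783, plus strand), the subunit that cells make also without stress, ranged from 52.3 to 60.0 CPM in MS (median 55.1) and from 46.2 to 55.9 CPM in SR (median 51.1). All 8 MS mice lay above the SR median, while 5 of the 8 lay inside the SR range. Means were 55.6 ± 2.88 and 51.6 ± 2.87 (SD), a log2 fold change of 0.11 (SE 0.0379) or a fold of 1.08 with a 95% interval of 1.02 to 1.14. The difference had an unadjusted p of 0.00917 and an adjusted p of 0.275 in edgeR, and an exact two-sided permutation test over mice gave p = 0.00715. Over the means of the 7 sets the exact permutation test gave p = 0.0857, where the smallest p that 35 splits allow is 0.0286. The set means were 59.7 (A), 55.4 (B) and 53.0 CPM (C) in MS and 51.7 (D), 54.0 (E), 52.2 (F) and 48.4 CPM (G) in SR, so that set C of MS lay below set E of SR. Without set A the log2 fold change was 0.07 with an unadjusted p of 0.0931 in edgeR, and without set G it was 0.07 with an unadjusted p of 0.0647. Of its exon bases, 11.4% overlap an unconfirmed transcript on the opposite strand with 80 counts in all.

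Ppp1r15a (ENSMUSG00000040435, chromosome 7, 45522916 to 45526268, minus strand), the subunit induced by stress, ranged from 13.3 to 17.7 CPM in MS (median 16.0) and from 12.9 to 17.1 CPM in SR (median 15.1). Its difference on the log2 scale was 0.05 (SE 0.0647, 95% interval -0.08 to 0.18, adjusted p = 0.822 in edgeR). The groups lay on top of each other, with 7 of 8 MS mice inside the SR range. Ppp1r15a is also known as a gene that responds fast to neuronal activity. The summed CPM of 10 immediate early genes, which mark such activity, was 539 to 1063 in MS and 406 to 1018 in SR.

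The 2 transcription factors did not differ between groups in the test either. Atf4 (ENSMUSG00000042406, chromosome 15, 80255184 to 80257541, plus strand) ranged from 86.5 to 103 CPM in MS with a median of 94.4, and from 78.2 to 103 CPM in SR with a median of 91.2. Every MS mouse lay inside the SR range, with means of 94.2 ± 5.59 and 91.4 ± 8.00 CPM (SD). The log2 fold change was 0.04 (SE 0.0492, 95% interval -0.06 to 0.14, adjusted p = 0.783 in edgeR). Ddit3 (ENSMUSG00000025408, chromosome 10, 127290774 to 127296288, plus strand), the pro-apoptotic factor CHOP, ranged from 17.3 to 23.8 CPM in MS (median 19.4) and from 16.7 to 22.9 CPM in SR (median 19.3). Its log2 fold change was 0.02 (SE 0.0685, 95% interval -0.12 to 0.16, adjusted p = 0.937 in edgeR), with 7 of 8 MS mice inside the SR range. A second entry of the annotation under the name Ddit3, ENSMUSG00000116429, shares 105 exon bases with it, 6.13% of its exons, and was at 0 counts in all 21 libraries. Mars overlaps another 68 exon bases on the opposite strand. How reads from shared bases were counted is not given in the sources used here.

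Of the 4 target genes, Asns (ENSMUSG00000029752, chromosome 6, 7675169 to 7693254, minus strand), which makes asparagine, had the narrowest interval. It ranged from 73.8 to 81.8 CPM in MS (median 76.3) and from 72.7 to 83.1 CPM in SR (median 75.9), and every MS mouse lay inside the SR range. The coefficient of variation was 3.06% in MS and 3.76% in SR. Its log2 fold change was 0.01 (SE 0.0290, adjusted p = 0.955 in edgeR), and the 95% interval of the fold was 0.964 to 1.05. Sesn2 (ENSMUSG00000028893, chromosome 4, 132492032 to 132510501, minus strand), which restrains the growth kinase mTORC1, ranged from 19.0 to 23.1 CPM in MS (median 20.8) and from 17.4 to 22.9 CPM in SR (median 20.5). On the log2 scale Sesn2 differed by 0.04 (SE 0.0509, 95% interval -0.06 to 0.15, adjusted p = 0.790 in edgeR). Both genes thus had group medians within 1 CPM of each other.

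The other target genes had few counts. Chac1 (ENSMUSG00000027313, chromosome 2, 119351229 to 119354381, plus strand), an enzyme that breaks down glutathione, had 77 to 177 counts per library in the fit. It ranged from 3.32 to 5.86 CPM in MS (median 5.08) and from 3.60 to 6.73 CPM in SR (median 4.87). MS minus SR on the log2 scale was -0.01 (SE 0.110, 95% interval -0.23 to 0.22, adjusted p = 0.992 in edgeR), and 7 of 8 MS mice lay inside the SR range. Trib3 (ENSMUSG00000032715, chromosome 2, 152337422 to 152344032, minus strand), a pseudokinase induced by ATF4 and CHOP, had 4 to 20 counts per library. It ranged from 0.219 to 0.683 CPM in MS (median 0.389) and from 0.249 to 0.845 CPM in SR (median 0.530). Its log2 fold change was -0.30 with an SE of 0.280 and a 95% interval of -0.87 to 0.28 (adjusted p = 0.731 in edgeR), an interval that holds changes in both directions. The direction turned with the left-out library added (0.06), in the first range of animal numbers alone (0.06) and without set C (0.0095). With that library added, however, the difference in mean log2 CPM over mice stayed below 0 (-0.075). Counting error alone gives a coefficient of variation of 31.4% at the depth of these libraries, beside the 41.9% measured over the 20 mice.

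Per kilobase of exon, the order of the levels over the 20 mice began with Atf4 at 39.2 ± 3.01 CPM per kb (SD) and Asns at 28.1 ± 0.961, whose ranges did not overlap. Ddit3 followed at 11.5 ± 1.22 CPM per kb and Ppp1r15b at 9.50 ± 0.615, which overlapped in range although Ddit3 was the higher in 20 of 20 mice. Next came Sesn2 at 5.94 ± 0.429, Ppp1r15a at 5.19 ± 0.50, Eif2ak4 at 4.78 ± 0.398 and Eif2ak3 at 4.25 ± 0.291 CPM per kb. Neighbours among these 4 overlapped in range, with the higher one ahead in 14 to 17 of 20 mice. Chac1 was at 3.02 ± 0.482 and Trib3 at 0.218 ± 0.0915 CPM per kb, below all values of Chac1.

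Animal numbers fell into 2 ranges, and the labels do not say what these mark. The second holds set C of MS and set G of SR alone, 3 mice each, so that condition and set cannot be told apart there and p-values over mice do not cover differences between sets. Some genes were apart within it. There, 4 of the 10 genes had MS and SR values that did not overlap, against 10.7% of all genes tested: Trib3 and Chac1 lower in MS, Sesn2 and Ppp1r15b higher. Trib3 was at 0.270, 0.259 and 0.219 CPM in the MS mice (6, 6 and 4 counts) and at 0.608, 0.517 and 0.543 CPM in the SR mice (16, 11 and 11 counts). In the first range its means were 0.504 ± 0.160 in 5 MS mice and 0.483 ± 0.233 in 9 SR mice, with overlapping values. The difference between the ranges in the log2 fold change was -1.20 (SE 0.589, unadjusted p = 0.0533, adjusted p = 0.585 in edgeR), so that the effects were not shown to differ.

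Chac1 was at 5.12, 3.32 and 5.43 CPM in MS mice of the second range and at 6.73, 5.74 and 5.47 CPM in the SR mice. In the first range the order was turned, with 5.13 ± 0.636 CPM in MS and 4.61 ± 0.504 CPM in SR. The effects differed by -0.53 on the log2 scale (SE 0.208, unadjusted p = 0.0172), which did not pass the adjustment in edgeR (adjusted p = 0.498). Sesn2 was at 20.8, 22.1 and 21.2 CPM in MS mice of the second range and at 18.5, 20.1 and 19.6 CPM in the SR mice, while in the first range the means were 20.8 ± 1.49 and 20.7 ± 1.76 CPM.

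For Ppp1r15b, the MS mean was the higher in both ranges. It was at 57.1 ± 2.42 CPM in MS and 52.6 ± 2.24 CPM in SR in the first range, and at 53.0 ± 1.05 and 48.4 ± 2.23 CPM in the second. With the range as a term, its unadjusted p was 0.00086 and its adjusted p 0.124 in edgeR. Atf4 had means of 93.6 ± 4.51 and 93.7 ± 7.92 CPM in the first range and of 95.1 ± 8.16 and 84.5 ± 2.30 CPM in the second. No gene of all those tested had an effect that differed between the ranges at an adjusted p under 0.05, and 1573 had an unadjusted p under 0.05 (edgeR).

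**Figure D2:**
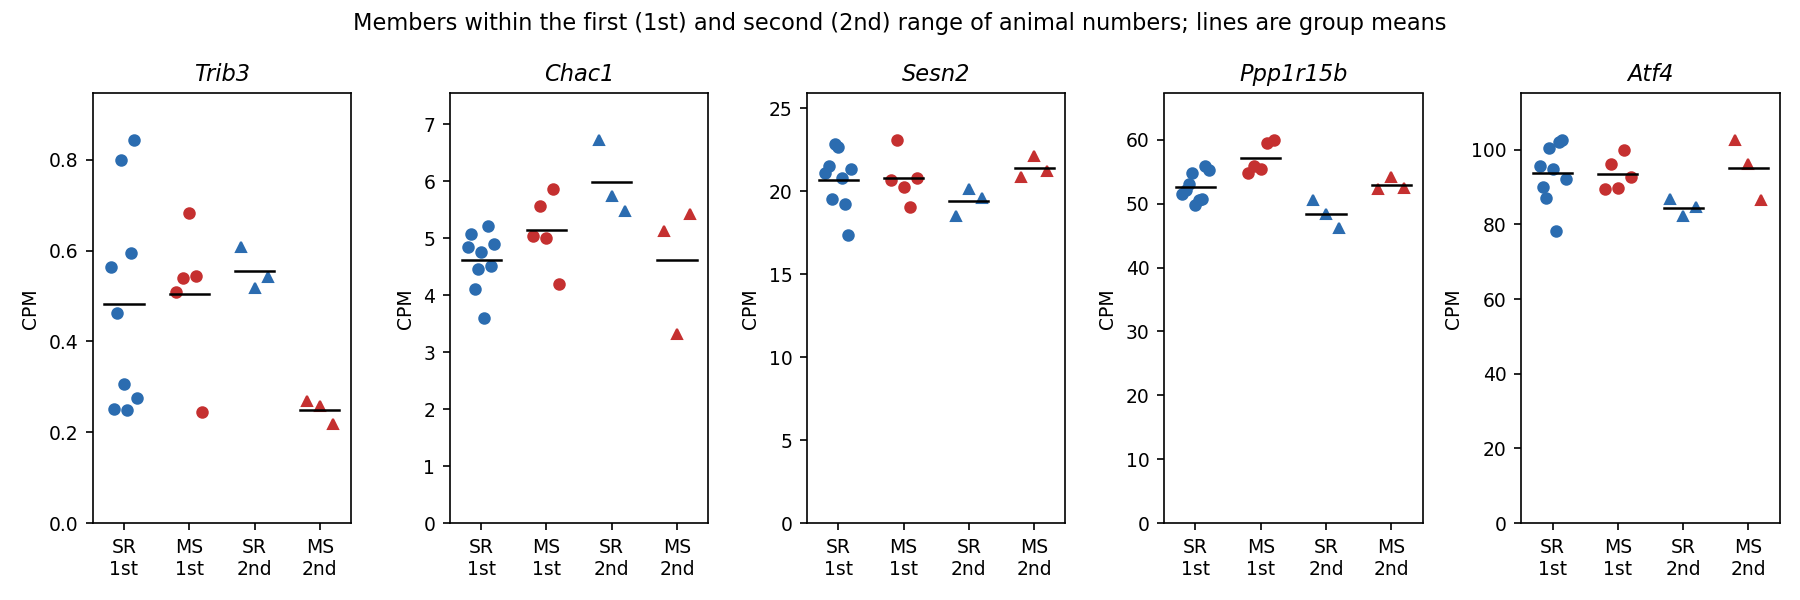
CPM (y axis, starting at 0) of Trib3, Chac1, Sesn2, Ppp1r15b and Atf4 in SR and MS mice of the first (9 SR, 5 MS) and second (3 SR, 3 MS) range of animal numbers, with lines at the group means. For Ppp1r15b the MS mean is above the SR mean in both ranges, whereas for Trib3 and Chac1 it is above it in the first range and below it in the second.

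The further genes of the pathway were described by 5 lists, of which 70 of 72 genes were tested. Fgf21 (21 counts in all libraries together) and Gdf15 (106 counts), which encode secreted stress hormones, had too few counts to test. Of the 70, 43 had a log2 fold change above 0, which is 61.4% against 50.3% of all genes, and their median was 0.01 (0.00 over all genes). None passed an adjusted p of 0.05 in edgeR, the smallest being 0.145. At an unadjusted p under 0.05, 7 of the 70 were higher and 4 lower in MS, against 6.62% and 4.92% of all genes.

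Of the 21 kinases, eIF2 subunits and partners, 14 had a log2 fold change above 0. Hspa5 encodes BiP, the ER chaperone that holds PERK inactive, and was at 345 ± 69.0 CPM in MS and 262 ± 48.8 CPM in SR (SD), a log2 fold change of 0.40 (SE 0.115, adjusted p = 0.191 in edgeR). Dnajc3 encodes P58IPK, an ER co-chaperone first known as an inhibitor of eIF2α kinases, and was at 74.9 ± 7.76 and 64.0 ± 7.80 CPM (log2 fold change 0.23, SE 0.0686, adjusted p = 0.205 in edgeR). These were the 2 genes of the list with the smallest p, and DESeq2 gave Hspa5 an adjusted p of 0.0406. The difference in Dnajc3 was 0.31 on the log2 scale in the first range of animal numbers and 0.02 in the second (unadjusted p of the difference 0.0377, adjusted p = 0.550 in edgeR). In the same list, the largest downward evidence was for Eif2a (-0.06) and Gcn1l1, the activator of GCN2 (-0.04), neither past an unadjusted p of 0.05. Eif2a encodes eIF2A, a factor other than eIF2α. Eif2s1, which encodes eIF2α, had a log2 fold change of 0.03 (SE 0.0457, adjusted p = 0.825 in edgeR).

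Of the 7 other transcription factors, 5 had a log2 fold change above 0. Cebpg, a dimer partner of ATF4, was at 36.8 ± 3.16 CPM in MS and 33.9 ± 1.82 CPM in SR (log2 fold change 0.12, SE 0.0458, unadjusted p = 0.0165, adjusted p = 0.319 in edgeR). Cebpb (0.24), Nupr1 (-0.08) and Jdp2 (-0.02) did not reach an unadjusted p of 0.05.

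Genes of amino acid supply went both ways. Of 17 tested, 11 had a log2 fold change above 0, among them Cth, which makes cysteine (0.24, SE 0.104, adjusted p = 0.375 in edgeR), and Psph, the last enzyme of serine synthesis (0.14, adjusted p = 0.404). Slc7a5, the large neutral amino acid transporter, was lower at 74.9 ± 5.79 CPM in MS and 82.0 ± 5.71 CPM in SR (-0.13, SE 0.0466, unadjusted p = 0.0107, adjusted p = 0.289 in edgeR), and the mitochondrial serine enzyme Shmt2 stood at -0.07. The tRNA list holds aminoacyl-tRNA synthetases and Xpot, which encodes an exporter of tRNA from the nucleus. Among its 13 genes, 4 had a log2 fold change above 0, Xpot being 1 of them, and 9 below, with a median of -0.02. The smallest p in this list was that of Lars, which charges tRNA with leucine, at 41.1 ± 1.93 CPM in MS and 44.2 ± 1.47 CPM in SR (-0.11, SE 0.0323, unadjusted p = 0.00321, adjusted p = 0.207 in edgeR). Aars was at -0.05 (adjusted p = 0.404 in edgeR), while Yars (0.02) and Gars (0.01) were the upward ones with the smallest p.

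Of the 12 other targets of ATF4 or CHOP, 9 had a log2 fold change above 0. Herpud1, a part of the ER-associated degradation machinery, was at 51.2 ± 7.75 CPM in MS and 44.8 ± 3.59 CPM in SR (0.19, SE 0.0668, unadjusted p = 0.00823, adjusted p = 0.264 in edgeR). Slc6a6, the taurine transporter, went the other way at 149 ± 11.0 and 167 ± 8.56 CPM (-0.16, SE 0.0409, unadjusted p = 0.000661, adjusted p = 0.145 in edgeR), and DESeq2 gave it an adjusted p of 0.0292. Ddit4 (0.15) and Bbc3, which encodes the pro-apoptotic protein PUMA (-0.09), did not reach an unadjusted p of 0.05. Some of these genes answer to other branches of the unfolded protein response too, Hspa5, Dnajc3 and Herpud1 being known targets of ATF6 or XBP1.

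**Figure D3:**
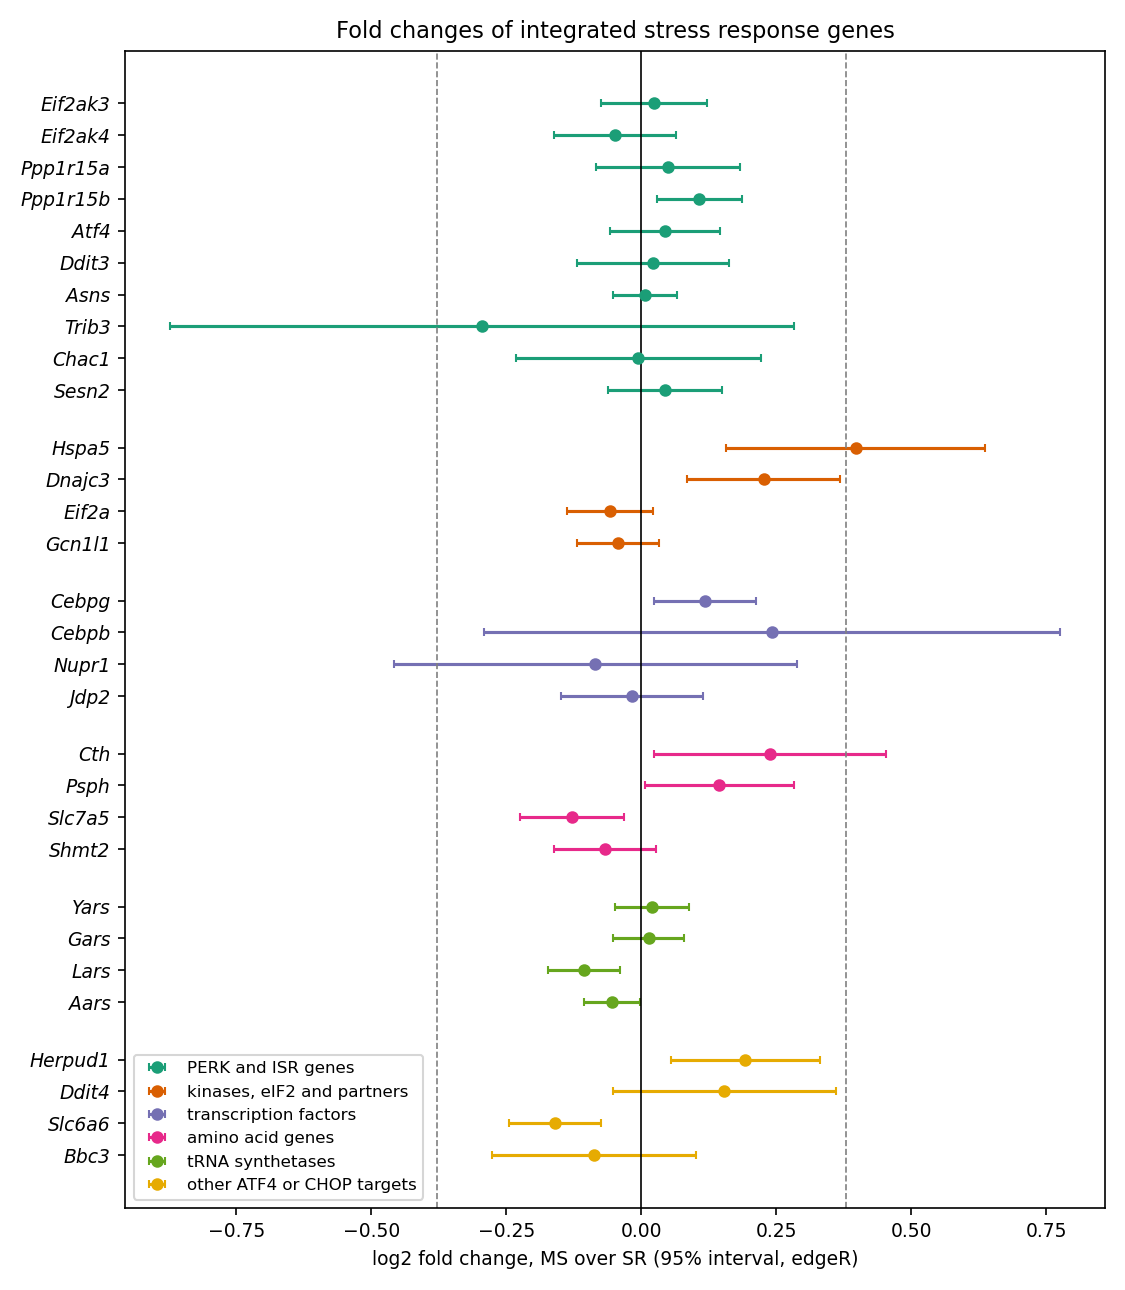
Log2 fold changes, MS over SR, with 95% intervals from edgeR (x axis) for the 10 genes and for the named genes of the 5 lists, coloured by list; dashed lines mark 1.3-fold in either direction. The intervals of the 10 genes lie inside the dashed lines except that of Trib3 (-0.87 to 0.28), and that of Ppp1r15b does not reach 0.

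Whether the genes rise and fall together from mouse to mouse was examined over the 20 mice of both groups by the correlation of log2 CPM for all 45 pairs. No pair passed an adjusted p of 0.05, by Pearson's r or Spearman's rho, in permutation tests of 100000 draws. Pearson's r lay between -0.48 and 0.50 with a median of 0.02, and 26 pairs were above 0. The largest was that of Atf4 with Ddit3 (r = 0.50, permutation p = 0.0255, adjusted p = 0.398; rho = 0.45, permutation p = 0.0472, adjusted p = 0.530). It was 0.50 without the 2 mice farthest out in Atf4, 0.49 in the 14 mice of the first range of animal numbers and 0.75 in the 6 mice of the second, but 0.35 (permutation p = 0.119) with the left-out library added. Atf4 had an r of 0.47 with Asns, 0.47 with Ppp1r15b, 0.27 with Trib3, 0.00 with Chac1 and 0.02 with Sesn2. The ranges had opposite signs for Trib3 (0.61 in the first, -0.62 in the second), Chac1 (0.59 and -0.54) and Sesn2 (-0.19 and 0.52). Permutation p was 0.0187, 0.0283 and 0.507 in the first range and 0.264, 0.249 and 0.306 in the second, and none passed adjustment. The second range holds 3 mice per condition, and these 3 genes had groups apart there. A turn in sign was thus not shown. The lowest r was that of Eif2ak3 with Sesn2 (r = -0.48, permutation p = 0.0338, adjusted p = 0.398; rho = -0.65, permutation p = 0.00256, adjusted p = 0.115). It was -0.67 without the 2 mice farthest out in Eif2ak3, -0.64 in the first range, -0.08 in the second and -0.29 with the left-out library added. With that library, Trib3 with Sesn2 had the lowest r (-0.64) and Asns with Sesn2 the highest (0.48). The phosphatase subunits Ppp1r15a and Ppp1r15b had an r of 0.41 with each other.

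**Figure D4:**
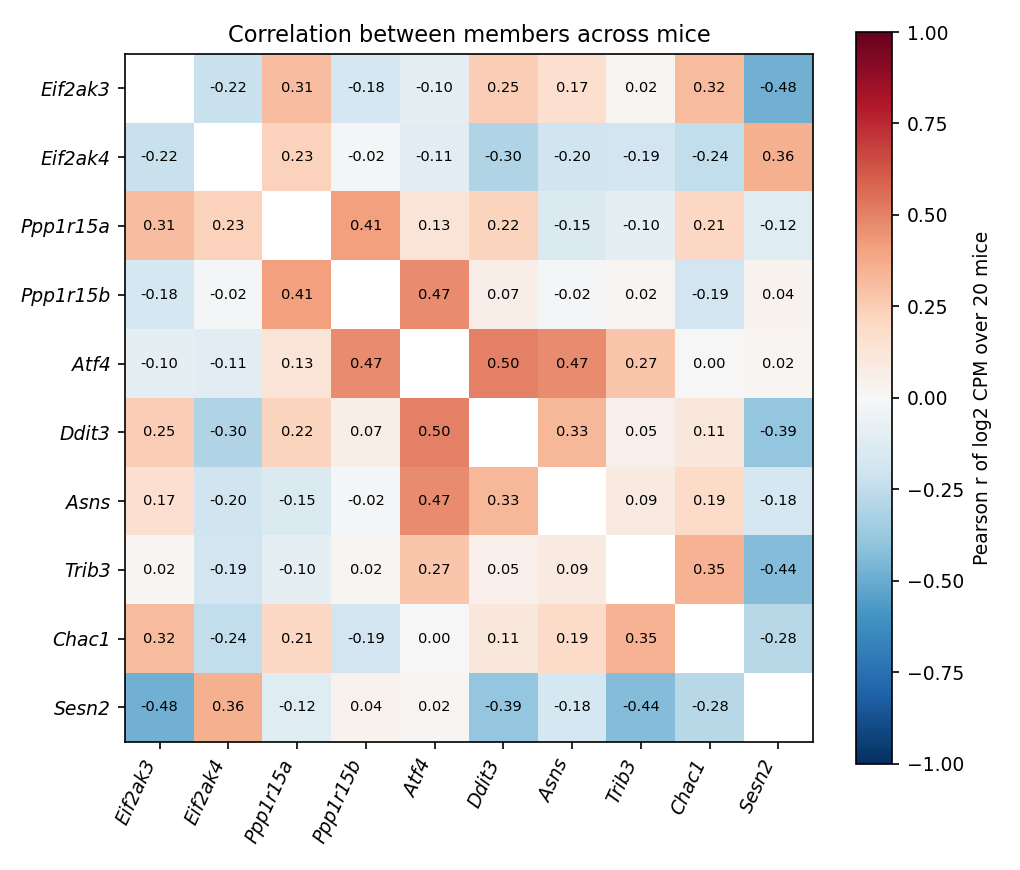
Pearson's r of log2 CPM over 20 mice for each pair of the 10 genes, printed in each cell and coloured from -1 (blue) to 1 (red). The highest value is that of Atf4 with Ddit3 (0.50) and the lowest that of Eif2ak3 with Sesn2 (-0.48), and none passed adjustment over the 45 pairs.

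Among the other 18145 genes, those whose log2 CPM followed Atf4 most closely over the 20 mice included Gjb6 (r = 0.91, rho = 0.90), Rita1 (0.85), Rrp9 (0.83) and Cables1 (0.81). Gjb6 encodes connexin 30, a gap junction protein of astrocytes. The summed CPM of 6 astrocyte markers was 3217 to 3954 in MS and 3382 to 3986 in SR. For Eif2ak3 the closest were Thoc1 (r = 0.72), the antisense RNA A930015D03Rik (0.69), Sp7 (0.68), C130074G19Rik (0.68) and Gbp2 (0.67). None of the other 9 genes described here was among the 5 closest of either. As the highest of 18145 values each, these are descriptions of the 20 mice and carry no test.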

How the data were processed

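Poly-A RNA of the hippocampus was sequenced from 21 mice, grouped by the treatment in their labels. The authors aligned paired reads to GRCm38 with STAR 2.7.3a and counted them per Ensembl gene with featureCounts, per the labels and methods; they deposited 1 table of raw counts, not normalised or filtered. Total counts per library were 17276810 to 30449055, and intervals cover the spread between mice. The members and gene lists were chosen with earlier results of these data known. MS mouse 5 had the largest score on the first principal component of the 500 most variable genes and was left out. The methods state that 1 outlier was removed after such an analysis but do not name it, so the choice of this mouse was made here. The study reports 9 MS and 12 SR mice, as many as the deposited libraries. MS mouse 5 may therefore have been kept in its analysis. Counts were filtered (filterByExpr, minimum count 10), normalised by TMM and tested with edgeR 4.0.16's robust quasi-likelihood test (R 4.3.3). P-values were adjusted by Benjamini-Hochberg over 18146 genes, with a threshold of 0.05. The standard error is the log2 fold change over the root of F. Log2 CPM used a prior count of 2. The scripts were tested on simulated data with mice drawn independently, in which 95.3% of the 95% intervals held the true value. Alternatives were DESeq2 1.42.0, limma-voom 3.58.1 with the set as a random block (correlation 0.0466), other filters, scaling, libraries, sets and ranges of animal numbers. All members were named, as were, per list, the 2 higher and 2 lower genes with the smallest p. For Eif2ak3 and Atf4 the 5 genes of highest r were taken, of which 1 is not reported here. Symbols and positions are of GENCODE M21, and exon lengths were summed over its merged exons.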

Additional observations from a re-analysis of the deposited data

Results flagged for a closer look

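By Dixon's test, the MS library left out of the fit stood apart from the other MS mice in 2 of the 10 genes. Among all 9 MS mice, it was the highest for Trib3 at 1.29 CPM (39 counts), where the gap to the next mouse was 0.565 of the whole range, and the lowest for Sesn2 at 13.1 CPM, where the gap was 0.593 of the range. Both gaps are past Dixon's 95% critical value for 9 samples, and 20 groups were tested, with and without this library. The library was picked as the farthest out on the first principal component of these same data. The usual chance rate of about 1 in 20 therefore does not hold for it. Its CPM was scaled with all 21 libraries, that of the other mice with the 20 of the fit. Trib3 at 1.29 CPM and Ddit3 at 25.5 CPM (775 counts) in this library were above all 12 SR mice, whose highest values were 0.845 and 22.9 CPM. Other genes lay below all 12 SR mice in it: Asns (66.5 CPM), Sesn2 (13.1 CPM), Eif2ak4 (30.7 CPM) and Chac1 (3.43 CPM). The lowest SR values of these were 72.7, 17.4, 31.6 and 3.60 CPM. This library also had the summed CPM of 1990 for striatal markers and of 179 for markers of hippocampal neurons, and their part in these values was not tested.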

How the results depend on the processing

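No member passed an adjusted p of 0.05 under the alternatives that gave one, those leaving out 1 mouse or 1 set included; Trib3 had none in DESeq2 and was not tested with at least 10 counts in every library. The smallest adjusted p was that of Ppp1r15b without set C (0.0699, edgeR), and its log2 fold change was above 0 throughout (0.07 to 0.15 with a mouse or set left out, 0.10 to 0.13 otherwise). Some log2 fold changes turned sign. With the first range of animal numbers only, those of Atf4 (-0.0016), Ddit3 (-0.041), Trib3 (0.064), Asns (-0.00891), Chac1 (0.16) and Yars (-0.00967) did. With all 21 libraries, those of Trib3 (0.058), Asns (-0.016), Sesn2 (-0.021), Nupr1 (0.064) and Gars (-0.026) did. There, the differences in mean log2 CPM of Asns (-0.016) and Sesn2 (-0.0302) also turned, over mice and over sets. That of Trib3 did not (-0.075). With the second range only, the log2 fold changes of Eif2a (0.016), Cebpb (-0.026), Nupr1 (0.18), Jdp2 (0.13), Shmt2 (0.027) and Bbc3 (0.24) turned. Asns was at -0.0022 without a filter, Chac1 at 0.017 with the length trend as a term and Jdp2 at 0.000522 with counts summed in sets. Leaving out a mouse or set gave Eif2ak3 -0.014 to 0.053, Ddit3 -0.035 to 0.092, Trib3 -0.69 to 0.0095 (above 0 without set C), Asns -0.0064 to 0.021, Chac1 -0.073 to 0.095, Nupr1 -0.23 to 0.069, Jdp2 -0.055 to 0.025, Yars -0.017 to 0.0498 and Gars -0.0082 to 0.0242. Of the further pathway genes, 2 passed in DESeq2 (Hspa5 and Slc6a6; 0.925% of all genes), 2 in the first range only (Hspa5 and Dnajc3, adjusted p 0.0239 and 0.0153 in edgeR; 1.25% of all genes), and 0 to 1 when a mouse or set was left out, the 1 being Slc6a6 without MS mouse 8 (0.0497). The cause was not tested. Over all genes, the alternatives gave 0 to 340 calls, the most without set C. The correlations within each range were added after the data were seen, and no pair passed there. A paired analysis was not made, because whole nests were assigned to a condition and the labels pair no MS mouse with an SR mouse. Depth limits Trib3 most, with 4 to 20 counts per library.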
